A study of Mus musculus with 12 samples.

Results

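The genes described here are 7 of the 21930 genes counted in mouse eye tissue, and together they make and load major histocompatibility complex (MHC) class II. They are *Ciita*, *H2-Aa*, *H2-Ab1*, *H2-Eb1*, *Cd74*, *H2-DMa* and *H2-DMb1*, chosen by name for their role, with earlier results of all 12 libraries known, so every contrast between groups counts as used in the choice and the fold changes below are a description. All 7 were found in the table and all 7 passed the filter on low counts in every comparison. The question followed is how their RNA stood in each mouse after an oxidant injury of the eye, on an ordinary diet and on a fasting diet.

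Wild-type male C57BL/6J mice, 8 weeks old at the start, were kept for 12 weeks with food always present (AL, ad libitum) or with food removed for 24 h on alternate days (IF, intermittent fasting). They then received 1 intraperitoneal injection of PBS or of NaIO3 at 25 mg/kg, an oxidant that damages the retinal pigment epithelium (RPE), stayed on their diet, and were sampled 7 days later. The 4 groups, AL + PBS, IF + PBS, AL + NaIO3 and IF + NaIO3, hold 3 mice each, with 1 RNA-seq library a mouse. No group carries a transgene. All mice were male, and the eye tissue was taken as an eye cup, which mixes many cell types.

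MHC class II molecules are pairs of an alpha and a beta chain that show peptides from swallowed material to CD4+ T cells. The chains are assembled with the invariant chain, which blocks the groove until cathepsins cut it down, and H2-M then exchanges the remaining fragment for a peptide. Dendritic cells, B cells and macrophages carry the molecules at rest or when activated, resting microglia carry little, and the transactivator CIITA, which interferon gamma can induce, switches the genes on together through factors bound to the X and Y boxes of their promoters.

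The libraries held 26364665 to 43046950 counts (median 31822705), so that 3 counts correspond to 0.0697 to 0.114 CPM (counts scaled to a common library total). The tissue is labelled as an RPE, choroid and sclera complex, while *Gnat1*, the transducin alpha subunit of rods, had 117754 to 446486 counts in every library, so photoreceptors were part of it; the RPE gene *Rpe65* had 1114 to 4689. AL + NaIO3 replicate 3 stood apart, with 27416 counts of the stromal gene *Dcn* against 913 to 4639 in the other 11 libraries and 15691 of the pigment cell gene *Pmel* against 412 to 1599. AL + NaIO3 replicate 2 held 4104 counts of the corneal keratin *Krt12* and AL + PBS replicate 2 held 6007 of the lens crystallin *Cryaa*. Fold changes of the members, and of the pathway genes without overlap between groups, that involve AL + NaIO3 are therefore given with and without AL + NaIO3 replicate 3.

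The promoter sequences are shown first, because the X and Y boxes are what the class II genes share and what CIITA acts through. RefSeq windows of 250 bases before the start (GRCm38.p6) were at hand for *H2-Aa*, *H2-Eb1*, *H2-DMb1* and, with 2 start sites, *H2-DMa*. The 165 bases before the start of *H2-Aa* (chr17:34287824-34287988, minus strand), *H2-Eb1* (chr17:34305702-34305866, plus strand) and *H2-DMb1* (chr17:34153026-34153190, plus strand) read, 5′ to 3′, with matches to the motifs in capitals:
H2-Aa: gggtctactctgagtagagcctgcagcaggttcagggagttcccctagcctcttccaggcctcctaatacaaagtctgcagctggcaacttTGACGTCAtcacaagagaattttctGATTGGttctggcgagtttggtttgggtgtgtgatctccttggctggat
H2-Eb1: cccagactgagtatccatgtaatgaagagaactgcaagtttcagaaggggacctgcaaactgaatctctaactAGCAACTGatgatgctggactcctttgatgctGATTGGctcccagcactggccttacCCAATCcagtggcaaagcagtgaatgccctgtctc
H2-DMb1: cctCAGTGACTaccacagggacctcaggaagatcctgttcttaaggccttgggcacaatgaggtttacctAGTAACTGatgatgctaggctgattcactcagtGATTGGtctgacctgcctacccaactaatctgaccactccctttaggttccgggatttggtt
The Y box core searched was GATTGG, the X1 core AGNNACNG and the X2 box TGNNGTCA, on both strands, where N is any base. Counted back from the start site, *H2-Aa* carried GATTGG at -49 to -44 and TGACGTCA at -74 to -67. *H2-Eb1* carried GATTGG at -60 to -55, its reverse CCAATC at -35 to -30, and AGCAACTG at -92 to -85. *H2-DMb1* carried GATTGG at -62 to -57, AGTAACTG at -95 to -88, and CAGTGACT, an X1 core on the opposite strand, at -162 to -155.

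Each of these 3 windows thus held a Y box core with an X1 or X2 match upstream of it. Of 32851 promoter windows of the same length, 14.6% held the Y box core, 43.6% the X1 core, 15.6% the X2 box and 7.44% a Y box core together with X1 or X2. *H2-Eb1* and *H2-DMb1* also shared the run AACTGATGATGCT, which begins inside the X1 match and was found in 2 of the 32851 windows; it was picked out after the sequences were seen. The *H2-DMa* windows held an X1 match (AGGCACGG at -179 to -172) at the first start site and a Y box core at -199 to -194 at the second. Both *H2-DMa* windows lie within the listed span of that gene, which overlaps *Brd2*, and which start site was in use was not tested. A match describes letters and not binding.

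*Ciita* (ENSMUSG00000022504, chr16:10480059-10528418), the transactivator itself, was the scarcest member per length together with *H2-DMb1*. Its counts were 57, 83 and 50 in the AL + PBS libraries, 48, 42 and 57 in IF + PBS, 104, 101 and 173 in AL + NaIO3, and 43, 42 and 54 in IF + NaIO3. All 3 AL + NaIO3 libraries were above the other 9, and the other 3 groups overlapped. On the CPM scale the means were 1.81 ± 0.162 (SD, n = 3) in AL + PBS, 1.56 ± 0.201 in IF + PBS, 3.86 ± 0.695 in AL + NaIO3 and 1.42 ± 0.385 in IF + NaIO3. Relative to the AL + PBS mean, the 3 AL + NaIO3 libraries stood at 1.85, 1.98 and 2.57, so the 3 libraries lay closer together than for the chain genes. *Ciita* overlaps *Dexi*, and whether the counting used strand is not given in the sources used here.

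*H2-Aa* (ENSMUSG00000036594, chr17:34282744-34287823) and *H2-Ab1* (ENSMUSG00000073421, chr17:34257689-34269419) encode the alpha and beta chain of I-A, the class II molecule that C57BL/6 mice show on their cells. *H2-Aa* had 95, 132 and 146 counts in AL + PBS, 102, 80 and 124 in IF + PBS, 269, 417 and 2287 in AL + NaIO3, and 88, 89 and 40 in IF + NaIO3. *H2-Ab1* had 96, 114 and 69, then 59, 57 and 84, then 154, 195 and 1200, and then 63, 51 and 36 in the same order of groups. For both chains each AL + NaIO3 library was above every library of the other groups, and each IF + NaIO3 library was below every PBS library in CPM.

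In CPM, *H2-Aa* had means of 3.65 ± 0.982 in AL + PBS and 28.3 ± 28.9 in AL + NaIO3 (SD, n = 3 each). The SD is as large as the mean, since the 3 libraries stood at 2.37, 4.06 and 16.8 times the AL + PBS mean. *H2-Ab1* had 2.68 ± 0.410 and 14.7 ± 15.2 CPM, with libraries at 1.85, 2.59 and 12 times. After fasting the I-A chains were at 2.12 ± 0.644 (*H2-Aa*) and 1.49 ± 0.295 CPM (*H2-Ab1*) in IF + NaIO3, against 3.24 ± 0.620 and 2.12 ± 0.423 in IF + PBS.

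*H2-Eb1* (ENSMUSG00000060586, chr17:34305867-34316674) encodes the beta chain of I-E, which C57BL/6 mice transcribe without showing I-E on the surface, since they lack its alpha chain. Its counts were 61, 125 and 92 in AL + PBS, 52, 59 and 82 in IF + PBS, 172, 282 and 1286 in AL + NaIO3, and 60, 46 and 18 in IF + NaIO3. It thus followed the I-A chains, with the AL + NaIO3 libraries at 2.09, 3.79 and 13.1 times the AL + PBS mean, and IF + NaIO3 replicate 3 the lowest of the 12. The ratio of *H2-Aa* to *H2-Eb1* counts kept within 1.06 to 2.22 over the 12 libraries, and was 1.48 to 1.78 in AL + NaIO3.

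*Cd74* (ENSMUSG00000024610), the invariant chain, was the most abundant member per length in each of the 12 libraries. It had 251, 465 and 345 counts in AL + PBS, 196, 160 and 312 in IF + PBS, 765, 1025 and 5178 in AL + NaIO3, and 157, 138 and 114 in IF + NaIO3. The 3 AL + NaIO3 libraries were above the other 9 and the 3 IF + NaIO3 libraries were below the other 9, so that *Cd74* had no overlap between those groups and any other. In CPM it stood at 10.1 ± 1.79 in AL + PBS, 7.05 ± 2.33 in IF + PBS, 66.7 ± 63.0 in AL + NaIO3 and 4.08 ± 0.382 in IF + NaIO3.

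*H2-DMa* (ENSMUSG00000037649, chr17:34119541-34139101) and *H2-DMb1* (ENSMUSG00000079547, chr17:34153072-34160230) encode chains of H2-M, the peptide exchanger. *H2-DMa* had 66, 96 and 54 counts in AL + PBS, 77, 59 and 70 in IF + PBS, 90, 95 and 131 in AL + NaIO3, and 47, 62 and 45 in IF + NaIO3. *H2-DMb1* had 17, 25 and 20, then 15, 4 and 15, then 31, 20 and 162, and then 15, 16 and 16. The pair stood apart most in AL + NaIO3 replicate 3: *H2-DMa* reached 1.41, 1.65 and 1.72 times its AL + PBS mean in the AL + NaIO3 libraries, while *H2-DMb1* reached 1.67, 1.19 and 7.29 times. Without replicate 3 their log2 fold changes against AL + PBS were 0.61 (SE 0.32) and 0.51 (SE 0.53), and no test compared the pair. *H2-DMb1* has a near-identical neighbour, *H2-DMb2*, with which it may share reads, and *H2-DMa* overlaps *Brd2*, so both values are uncertain to that extent.

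**Figure D1:**
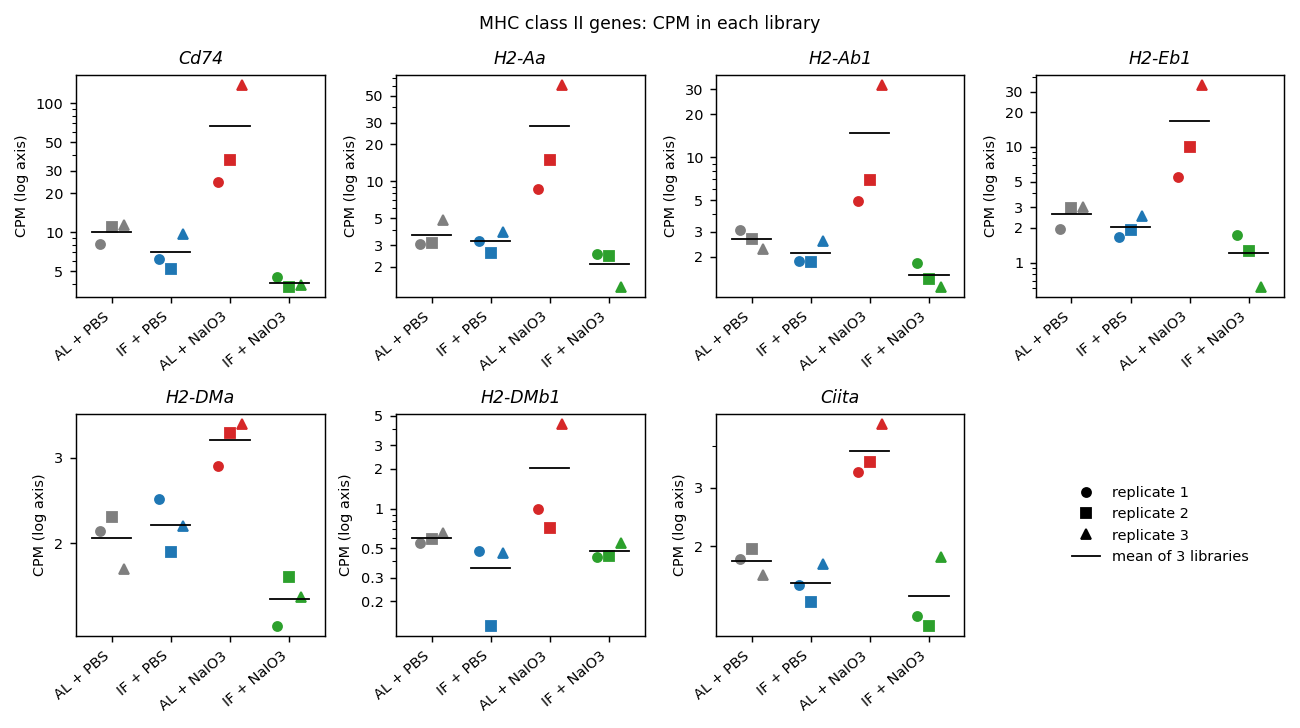
CPM (log axis) of the 7 members in each of the 12 libraries, by group; points are mice, with a marker for each replicate number, and the line is the mean of 3 libraries. The AL + NaIO3 points lie above those of the other groups in all 7 panels, with replicate 3 far above replicates 1 and 2 for the chains, *Cd74* and *H2-DMb1*, and close to them for *H2-DMa* and *Ciita*.

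Compared per length, on the deposited FPKM scale (fragments scaled to gene length and library total), the order of mean levels in AL + PBS was *Cd74* (6.59), *H2-Aa* (2.65), *H2-Ab1* (1.80), *H2-Eb1* (1.37), *H2-DMa* (1.36), *H2-DMb1* (0.325) and *Ciita* (0.294). *Cd74* ranked first and *H2-Aa* second in every AL + PBS, IF + PBS and AL + NaIO3 library, whereas each of the other 5 changed places with a neighbour between libraries, so the order of *H2-Ab1*, *H2-Eb1* and *H2-DMa*, and that of *H2-DMb1* and *Ciita*, is not settled. In AL + NaIO3 the means were 46.9 for *Cd74*, 22.4 for *H2-Aa*, 11.3 for *H2-Ab1*, 10.5 for *H2-Eb1*, 2.05 for *H2-DMa*, 1.31 for *H2-DMb1* and 0.856 for *Ciita*.

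The make-up of the summed FPKM of the 7 genes differed between groups. *Cd74* took 45.6 ± 3.51% in AL + PBS, 39.5 ± 3.57% in IF + PBS, 49.9 ± 1.34% in AL + NaIO3 and 35.5 ± 2.88% in IF + NaIO3 (SD, n = 3), and its AL + NaIO3 shares (48.8 to 51.4%) did not overlap its AL + PBS shares (41.7 to 48.6%). *H2-DMa* took 9.61 ± 2.29% in AL + PBS, 13.3 ± 2.76% in IF + PBS, 3.78 ± 2.57% in AL + NaIO3 and 13.8 ± 4.62% in IF + NaIO3. The summed CPM of the 7 genes was 20.6 to 25.4 in AL + PBS, 15 to 23.1 in IF + PBS, 50.9, 75.8 and 279.8 in AL + NaIO3, and 11.1 to 13.6 in IF + NaIO3, so the IF + NaIO3 libraries were the lowest of all.

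The first comparison asks how NaIO3 changed the genes on the ordinary diet. In AL + NaIO3 against AL + PBS, all 7 members were higher with no overlap between groups, a state that 9.80% of the 15612 genes tested shared in that direction. The log2 fold changes from edgeR's quasi-likelihood test were 2.97 (SE 0.70) for *H2-Aa*, 2.73 (SE 0.62) for *Cd74*, 2.67 (SE 0.65) for *H2-Eb1*, 2.47 (SE 0.69) for *H2-Ab1*, 1.77 (SE 0.72) for *H2-DMb1*, 1.10 (SE 0.32) for *Ciita* and 0.67 (SE 0.31) for *H2-DMa*. Their median was 2.47, beside 0.01 over all genes tested.

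No member passed the threshold of adjusted p under 0.05 and 1.5-fold (adjusted p from 0.242 for *Cd74* to 0.511 for *H2-DMa*, edgeR with Benjamini-Hochberg adjustment over all genes). Few genes did: 12 of 15612, or 0.0769%, and at an unadjusted p under 0.05 the edgeR test took 6 of the 7 members as higher, against 7.51% of all genes. Without AL + NaIO3 replicate 3 the log2 fold changes were smaller, at 1.59 (SE 0.21) for *Cd74*, 1.69 (SE 0.31) for *H2-Aa*, 1.55 (SE 0.34) for *H2-Eb1*, 1.15 (SE 0.29) for *H2-Ab1*, 0.93 (SE 0.31) for *Ciita*, 0.61 (SE 0.32) for *H2-DMa* and 0.51 (SE 0.53) for *H2-DMb1*. The SE fell to between 0.21 and 0.34 for *Cd74* and the 3 chain genes, hardly moved for *Ciita* and *H2-DMa*, and for *H2-DMb1* was larger than the fold change itself. Then *Cd74* passed (edgeR adjusted p = 0.0196), as did 0.572% of the genes tested. DESeq2 on all 6 libraries called 5 members, all but *H2-DMa* and *H2-DMb1*, beside 2.64% of the genes, and an edgeR fit of all 12 libraries called 3 (*Cd74*, *H2-Aa* and *H2-Eb1*), beside 1.11%. Over all alternatives the adjusted p of *Cd74* in edgeR or DESeq2 ran from 0.0169 to 0.744.

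The second comparison asks how the 2 diets differed after NaIO3, and it shares the AL + NaIO3 libraries with the first. It includes any diet difference already present after PBS, which the interaction below takes into account. In IF + NaIO3 against AL + NaIO3 all 7 members were lower with no overlap, against 10.2% of 15648 genes tested. The edgeR log2 fold changes were -4.04 (SE 0.64) for *Cd74*, -3.79 (SE 0.73) for *H2-Eb1*, -3.74 (SE 0.73) for *H2-Aa*, -3.31 (SE 0.72) for *H2-Ab1*, -2.10 (SE 0.75) for *H2-DMb1*, -1.45 (SE 0.37) for *Ciita* and -1.09 (SE 0.34) for *H2-DMa*. The median was -3.31, beside -0.01 over all genes.

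In this comparison edgeR called 6 genes (0.0383%) and no member, with adjusted p from 0.104 for *Cd74* to 0.360 for *H2-DMb1*. At an unadjusted p under 0.05 the same test took all 7 members as lower, against 8.22% of the genes. Without AL + NaIO3 replicate 3 it called 4 members as lower, beside 0.445% of the genes in that direction. These were *Cd74* (log2 fold change -2.91, SE 0.21, edgeR adjusted p = 0.000589), *H2-Aa* (-2.47, SE 0.35, adjusted p = 0.0236), *H2-Eb1* (-2.68, SE 0.44, adjusted p = 0.0480) and *H2-Ab1* (-2.0, SE 0.33, adjusted p = 0.0480). The other 3 stood at -1.30 (SE 0.38) for *Ciita*, -1.03 (SE 0.36) for *H2-DMa* and -0.86 (SE 0.60) for *H2-DMb1*, and 6 of the 7, all but *H2-DMb1*, then had an unadjusted p under 0.05 in edgeR. DESeq2 on all 6 libraries called 5 members as lower, these 4 and *Ciita*, beside 2.72% of the genes in that direction, and the edgeR fit of all 12 libraries called the same 5, beside 1.06%. With the replicate number as a block edgeR called *Cd74* alone, beside 0.160% of the genes in that direction (adjusted p = 0.0383), although the numbers did not pair the libraries. Over all alternatives the adjusted p in edgeR or DESeq2 ran from 2.0e-05 to 0.536 for *Cd74*, 0.00134 to 0.668 for *H2-Aa*, 2.1e-05 to 0.701 for *H2-Ab1* and 3.6e-07 to 0.673 for *H2-Eb1*.

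**Figure D2:**
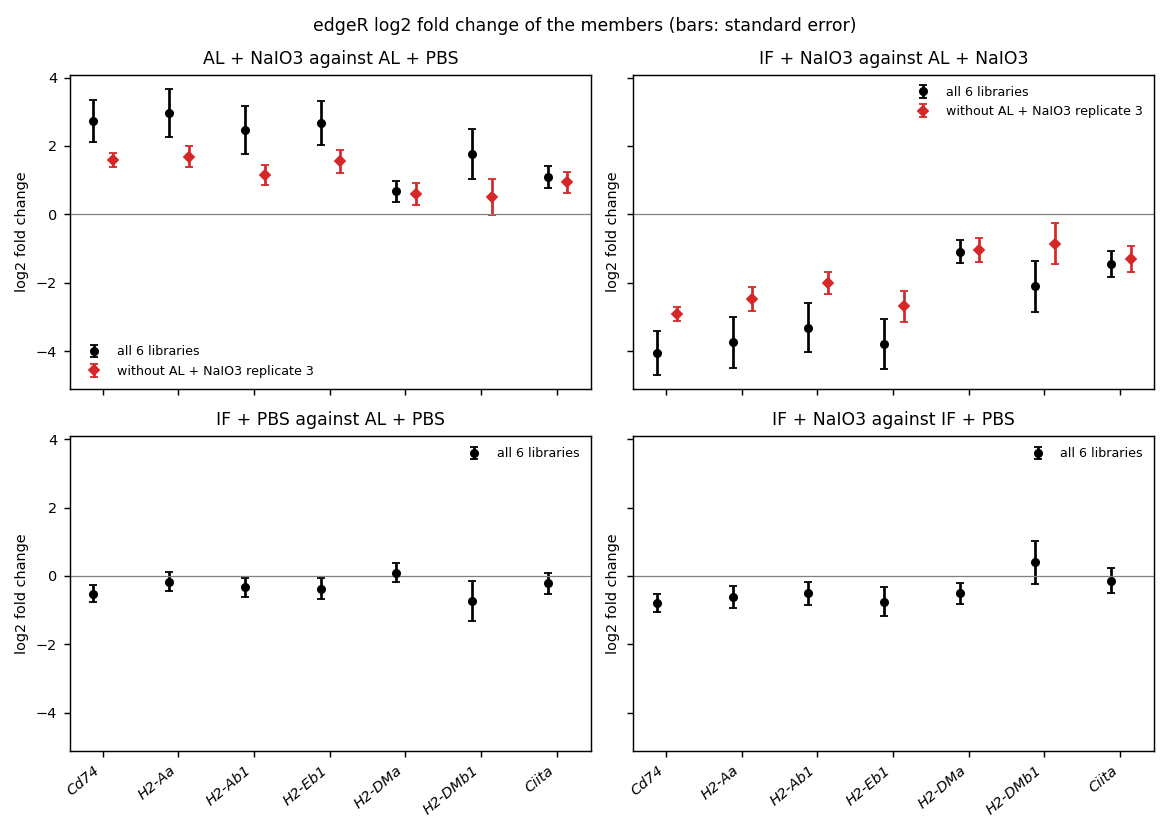
Log2 fold change of each member in the 4 comparisons (edgeR), with bars of 1 standard error; black circles use all 6 libraries and red diamonds leave out AL + NaIO3 replicate 3. The chains, *Cd74* and *H2-DMb1* lie nearer to 0 without that library, *H2-DMa* and *Ciita* hardly move, and the points of the PBS comparison stay within 1 of 0.

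The third comparison asks what fasting did in uninjured eyes. In IF + PBS against AL + PBS the log2 fold changes ran from -0.72 (SE 0.58) for *H2-DMb1* and -0.52 (SE 0.24) for *Cd74* to 0.09 (SE 0.28) for *H2-DMa*. Only *H2-DMb1* had groups that did not overlap, and it was lower, a state shared by 11.6% of 15361 genes. *Cd74* overlapped between the diets, with 8.05, 11 and 11.3 CPM in AL + PBS and 6.27, 5.21 and 9.67 in IF + PBS. The edgeR test called 0 genes here (0%), with 1263 higher and 1360 lower at an unadjusted p under 0.05, none of them a member. DESeq2 called 192 of the 14460 genes to which it gave an adjusted p (1.33%), also without a member. Leaving out IF + PBS replicate 1, edgeR called 472 genes (3.03%), none of them a member. Markers of other eye tissues moved in the same comparison: all 6 cornea and conjunctiva genes and all 6 skeletal muscle genes on the marker lists were lower at an unadjusted p under 0.05 (edgeR), against 8.85% of all genes, and 5 of each 6 did not overlap. At that p, 3 of 5 lens markers tested were lower. Of the 9 RPE markers 4 were higher, against 8.22% of all genes, and 1 was lower. The RPE sum was 1.08, 1.16 and 1.34 times the AL + PBS mean in IF + PBS, above the 0.971 to 1.05 of AL + PBS. The summed CPM of the 9 choroid and sclera stroma markers was 0.436, 0.584 and 0.681 times the AL + PBS mean in IF + PBS, below the 0.784 to 1.13 of AL + PBS. The part of these tissues in the class II values was not tested.

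The last pairwise comparison asks what NaIO3 did in fasted mice. In IF + NaIO3 against IF + PBS, *Cd74*, *H2-Aa*, *H2-Ab1* and *H2-DMa* were lower without overlap, against 10.7% of the 15305 genes tested. Their log2 fold changes were -0.79 (SE 0.26), -0.60 (SE 0.32), -0.50 (SE 0.33) and -0.50 (SE 0.31), and *H2-Eb1* (-0.75, SE 0.42), *Ciita* (-0.14, SE 0.36) and *H2-DMb1* (0.40, SE 0.62) overlapped. The smallest adjusted p was 0.229, for *Cd74* in edgeR, and only *Cd74* had an unadjusted p under 0.05, against 6.72% of the genes in its direction. The edgeR test called 0 genes (0%), with 1297 higher and 1029 lower at that unadjusted p. DESeq2 called 72 of the 9964 genes to which it gave an adjusted p (0.723%), with no member. When IF + PBS replicate 1 was left out, edgeR called 197 genes (1.27%), again with no member. Tissue markers moved here too: 7 of the 9 RPE markers were lower at an unadjusted p under 0.05 in edgeR, against 6.72% of all genes, and 5 of them without overlap, while 5 of the 6 cornea and conjunctiva markers were higher at that p, against 8.47%. Their part in the class II values was not tested.

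Whether the NaIO3 effect differed between diets was tested as an interaction over all 12 libraries. The edgeR coefficients on the log2 scale were -3.55 (SE 0.80) for *H2-Aa*, -3.50 (SE 0.71) for *Cd74*, -3.40 (SE 0.80) for *H2-Eb1*, -2.96 (SE 0.78) for *H2-Ab1*, -1.35 (SE 0.97) for *H2-DMb1*, -1.22 (SE 0.44) for *Ciita* and -1.17 (SE 0.39) for *H2-DMa*. The test called 5 of 15970 genes (0.0313%) and no member, with the lowest adjusted p among members at 0.113 (*Cd74*, edgeR), while 6 of the 7 had an unadjusted p under 0.05, against 6.88% of the genes in that direction. DESeq2 called 4 members (*Cd74*, *H2-Aa*, *H2-Eb1* and *H2-Ab1*) and 1.42% of the genes. Without AL + NaIO3 replicate 1 edgeR called the same 4 and 2.26% of the genes, and without replicate 3 it called *Cd74* alone (adjusted p = 0.0133, edgeR) and 0.199% of the genes. Over all alternatives the adjusted p of *Cd74* in edgeR or DESeq2 ran from 0.00754 to 0.368. The coefficients without replicate 3 were -2.39 (SE 0.35) for *Cd74*, -2.31 (SE 0.54) for *H2-Eb1*, -2.30 (SE 0.45) for *H2-Aa*, -1.66 (SE 0.41) for *H2-Ab1*, -1.12 (SE 0.40) for *H2-DMa*, -1.08 (SE 0.44) for *Ciita* and -0.12 (SE 0.88) for *H2-DMb1*.

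The X and Y boxes are bound by RFX (*Rfx5*, *Rfxank*, *Rfxap*), NF-Y (*Nfya*, *Nfyb*, *Nfyc*) and CREB (*Creb1*), which CIITA joins into one complex. None of these 7 genes was called by edgeR or DESeq2 in any of the 4 pairwise comparisons or the interaction, with 0 of 7 at an unadjusted p under 0.05 in edgeR for the first and the second comparison. At that p, 2 were higher in IF + PBS against AL + PBS (8.22% of all genes), 2 were higher and 1 lower in IF + NaIO3 against IF + PBS (8.47% and 6.72%), and 1 was lower in the interaction (6.88%). Their log2 fold changes in AL + NaIO3 against AL + PBS lay between -0.28 (*Nfya*, SE 0.16) and 0.18 (*Rfx5*, SE 0.14). *Rfx5* had 1007 to 1601 counts in AL + NaIO3 and 1069 to 1373 in AL + PBS, so its groups overlapped. In the first and the second comparison *Nfya* alone of the 7 was without overlap, lower in the first, as were 8.32% of the genes tested, and higher in the second (0.20, SE 0.15), as were 8.68%; without AL + NaIO3 replicate 3 it stood at -0.30 (SE 0.16) and 0.22 (SE 0.15). In IF + PBS against AL + PBS *Rfx5* (0.23, SE 0.10) and *Nfyc* (0.17, SE 0.09) were higher without overlap, beside 10.3% of the genes, and *Nfyb* (-0.11, SE 0.09) was lower, beside 11.6%. In IF + NaIO3 against IF + PBS *Creb1* (0.33, SE 0.11) and *Nfyb* (0.31, SE 0.10) were higher without overlap, beside 10.2%. Against the 1.10 of *Ciita*, the promoter factors had a median of -0.03.

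Among the endosomal proteases, cathepsin S (*Ctss*), which trims the invariant chain, had 407, 641 and 468 counts in AL + PBS, 398, 405 and 454 in IF + PBS, 1852, 1075 and 8116 in AL + NaIO3, and 509, 589 and 393 in IF + NaIO3. Its log2 fold changes were 2.87 (SE 0.61) for NaIO3 on the ordinary diet and -2.84 (SE 0.60) for fasting after NaIO3, without overlap in either, and edgeR called it in neither (adjusted p = 0.224 and 0.190). Leaving out AL + NaIO3 replicate 3, the *Ctss* fold changes were 1.75 (SE 0.19) and -1.73 (SE 0.19), and edgeR called it in both. It then called 0.572% of the genes tested in the first comparison, and 0.445% as lower in the second. *Ctsl*, cathepsin L, was also without overlap in both (0.74 and -0.62, or 0.33 and -0.22 without that library), while *Ctsd*, *Ctsb* and the legumain gene *Lgmn* overlapped (0.91, 0.53 and -0.10 for NaIO3 on the ordinary diet). Of all genes, 9.80% were higher without overlap in the first comparison and 10.2% were lower in the second. *Ctsl* was also the median of these 5 proteases in both. For the turnover of class II at the surface, the ubiquitin ligase genes *Marchf1* and *Marchf8* and their antagonist *Cd83* stood at -0.08, 0.04 and 0.22 in the first comparison, with all 3 overlapping.

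Of the costimulators and adhesion genes that act beside class II in T cell contact, *Cd86* had 10, 15 and 10 counts in AL + PBS and 36, 33 and 148 in AL + NaIO3 (log2 fold change 2.65, SE 0.63), with 17, 17 and 16 in IF + NaIO3. *Icam1* showed the same order (2.07, SE 0.58), and neither was called by edgeR (adjusted p = 0.259 and 0.301). *Cd40* (0.77, SE 0.87) and *Cd80* (0.28, SE 0.50) overlapped between those groups. *Cd86* and *Icam1* were again without overlap, and lower, in IF + NaIO3 against AL + NaIO3 (-2.07 and -1.83). The shares of all genes without overlap were 9.80% as higher in the first comparison and 10.2% as lower in the second. Once AL + NaIO3 replicate 3 was left out, *Cd86* stood at 1.79 (SE 0.53) and -1.22 (SE 0.55) in the 2 comparisons and *Icam1* at 1.17 (SE 0.37) and -0.94 (SE 0.31), while *Cd40* and *Cd80* turned to -0.14 (SE 0.93) and -0.25 (SE 0.48) in the first.

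Interferon gamma is the cytokine best known for inducing *Ciita*. *Ifng* itself had 6 counts in AL + NaIO3 replicate 1, 2 in IF + NaIO3 replicate 3 and 0 in the other 10 libraries, which is at the limit of what this depth can show. *Irf1*, a target and relay of the pathway, had 201, 310 and 252 counts in AL + PBS and 431, 422 and 822 in AL + NaIO3 (log2 fold change 1.22, SE 0.24, edgeR adjusted p = 0.183), and 280, 268 and 179 in IF + NaIO3. Its fold change was -1.24 (SE 0.25) in the second comparison, and 0.97 (SE 0.18) and -1.01 (SE 0.20) without AL + NaIO3 replicate 3. *Socs1* (-0.05, SE 0.55), *Ifngr1* (0.11), *Ifngr2* (0.31), *Jak1* (0.13) and *Jak2* (0.02) overlapped between AL + NaIO3 and AL + PBS. Over the 25 listed pathway genes tested outside the 7, edgeR called 0 in the first comparison, with 6 higher and 0 lower at an unadjusted p under 0.05 (7.51% of all genes were higher), and 0 in the second, with 0 higher and 6 lower (8.22% of all genes were lower). DESeq2 called 4 as higher in the first, beside 2.37% of all genes, and 3 as lower in the second, beside 2.72%. In IF + NaIO3 against IF + PBS, 20 of the 24 pathway genes tested were higher (50.2% of all genes), while 6 of the 7 members were lower. At an unadjusted p under 0.05 in edgeR, 5 pathway genes were higher and 1 lower (8.47% and 6.72% of all genes), with 0 called. In IF + PBS against AL + PBS 2 were higher and 2 lower at that p (8.22% and 8.85%).

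**Figure D3:**
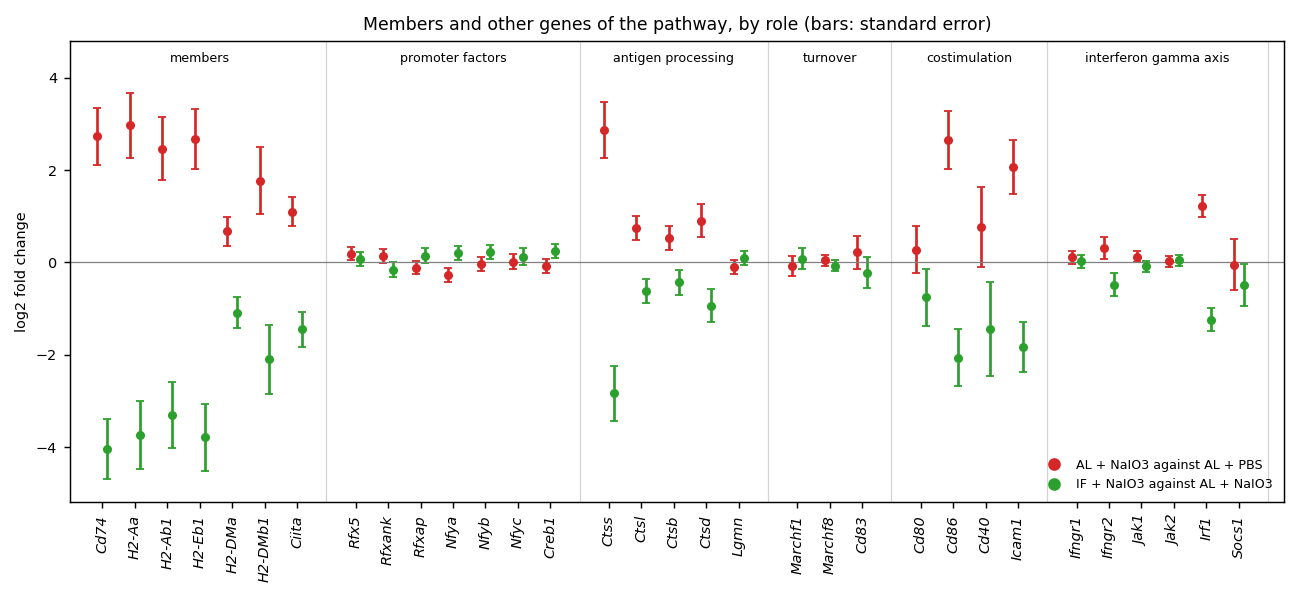
Log2 fold change (edgeR, bars of 1 standard error) of the 7 members and 25 other genes of the pathway, arranged by role, for NaIO3 on the ordinary diet (red) and for fasting after NaIO3 (green); the 2 share the AL + NaIO3 libraries. The promoter factors and the turnover genes lie near 0, while *Ctss*, *Cd86*, *Icam1* and *Irf1* lie on the side of the members.

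The 5 H2 members lie within 197.134 kb of chromosome 17 (chr17:34119541-34316674, GRCm38), an interval with 11 genes in the table. The immunoproteasome genes *Psmb8* and *Psmb9* and the peptide transporter genes *Tap1* and *Tap2*, which serve class I rather than class II, lie between *H2-DMb1* and *H2-Ab1*. They had log2 fold changes of 1.56 (SE 0.27), 1.67 (SE 0.44), 1.29 (SE 0.37) and 0.95 (SE 0.25) in AL + NaIO3 against AL + PBS, and all 4 were without overlap in both comparisons, beside 9.80% of all genes as higher in the first and 10.2% as lower in the second. In IF + NaIO3 against AL + NaIO3 they stood at -2.01, -1.80, -1.58 and -0.71, with no call by edgeR (lowest adjusted p = 0.104, *Psmb8*), although all 4 had an unadjusted p under 0.05 in each comparison (7.51% and 8.22% of all genes) and DESeq2 called 4 in the first and 3 in the second (2.37% and 2.72%). Without AL + NaIO3 replicate 3 the 4 genes stood at 1.47, 1.34, 1.04 and 0.83 in the first comparison and at -1.93, -1.48, -1.33 and -0.60 in the second, in the same order of genes, and edgeR called *Psmb8* in the second. Other class II genes of the region, among them *H2-Oa* and *H2-Ob*, whose product restrains H2-M, were scarce: *H2-DMb2* had 7, 5 and 17 counts in AL + NaIO3 and 0 to 2 elsewhere, *H2-Oa* 4, 4 and 10 against 0 to 3, and *H2-Ob* 3, 7 and 25 against 0 to 6. *H2-Eb2* had 7 counts in AL + NaIO3 replicate 3 and 0 in the other 11 libraries.

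**Figure D4:**
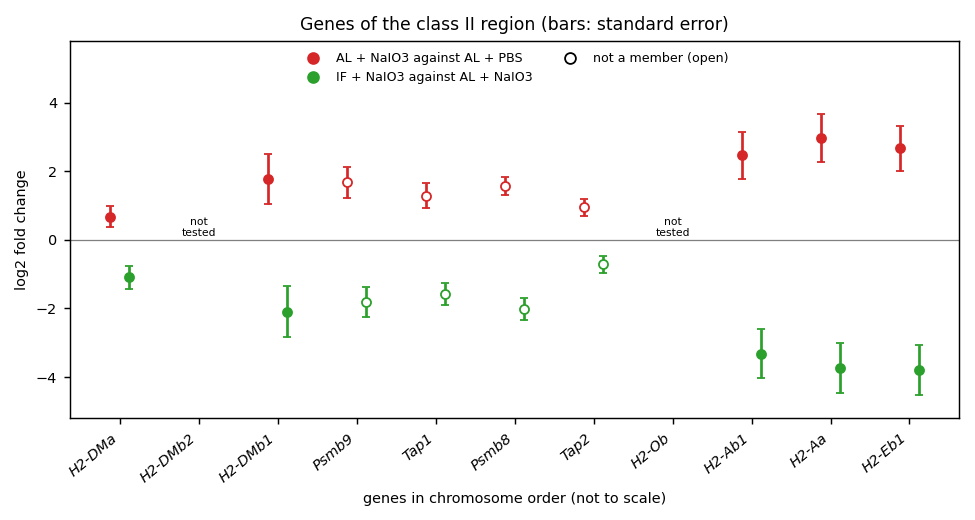
Log2 fold change (edgeR, bars of 1 standard error) of the 11 genes of the class II region in chromosome order, not to scale; filled points are members and open points are not. All 9 genes tested were above 0 for NaIO3 on the ordinary diet (red) and below 0 for fasting after NaIO3 (green), and the 3 classical chain genes at the right lie farthest from 0.

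In bulk tissue, fewer cells of a type and less RNA per cell cannot be told apart, so markers of the cells that could carry class II are set beside these values. The summed CPM of 13 macrophage and microglia markers was 70.3 to 73.8 in AL + PBS, 64.2 to 83.6 in IF + PBS, 139 to 372 in AL + NaIO3 and 69.4 to 84.9 in IF + NaIO3. In AL + NaIO3 replicates 1, 2 and 3 that sum was 2.52, 1.92 and 5.13 times its AL + PBS mean, and 10 of the 13 markers were higher without overlap, against 9.80% of all genes. The 10 dendritic cell markers summed to 16.2 to 16.6 CPM in AL + PBS, 17.9 to 19.4 in IF + PBS, 22.1 to 63.9 in AL + NaIO3 and 15.1 to 23.8 in IF + NaIO3, with *Cd209a* at 9, 0 and 104 counts and *Ccr7* at 8, 6 and 52 in AL + NaIO3 and at most 6 counts elsewhere. Of the 8 dendritic cell markers tested in AL + NaIO3 against AL + PBS, 3 were higher without overlap, against 9.80% of all genes. Their median log2 fold change was 0.92. Without AL + NaIO3 replicate 3 it was 0.37, with 6 markers higher and 2 lower. T and NK cell markers summed to 4.56 to 14.5 CPM in AL + NaIO3 and at most 2.34 in the other groups, and monocyte and neutrophil markers to 6.32 to 17 against at most 3.42. The 9 choroid and sclera stroma markers summed to 168 to 243 CPM in AL + PBS, 93.5 to 146 in IF + PBS, 229, 130 and 1408 in AL + NaIO3, and 148 to 165 in IF + NaIO3. In AL + NaIO3 replicates 1, 2 and 3 the sum of 8 photoreceptor markers was 1.17, 0.710 and 0.379 times its AL + PBS mean, that of the 9 RPE markers 0.596, 0.496 and 0.845 times, and that of the 6 cornea and conjunctiva markers 1.14, 11 and 0.761 times. So replicate 3, which had the most class II RNA, had the smallest photoreceptor sum of the 12 libraries. The RPE list includes *Pmel*, which stood far higher in replicate 3 than in the other libraries. The RPE sum of 0.845 times in that library therefore rests partly on this pigment cell gene. The 5 B cell markers in the table summed to at most 1.91 CPM in any library, and *Ms4a1* was at 0 in 11 of 12. The part that cell numbers or tissue make-up played in the class II values was not tested.

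Relative to leukocyte and phagocyte genes, class II RNA did not follow one pattern. The pan-leukocyte gene *Ptprc* had 30, 45 and 31 counts in AL + PBS, 18, 63 and 55 in IF + PBS, 137, 136 and 823 in AL + NaIO3, and 67, 54 and 41 in IF + NaIO3. *Cd74* counts per *Ptprc* count were 8.37 to 11.1 in AL + PBS, 2.54 to 10.9 in IF + PBS, 5.58 to 7.54 in AL + NaIO3 and 2.34 to 2.78 in IF + NaIO3. So the AL + NaIO3 libraries, including replicate 3, had less *Cd74* per *Ptprc* than the AL + PBS libraries, and the IF + NaIO3 libraries had the least apart from IF + PBS replicate 2. For *H2-Aa* per *Ptprc*, AL + NaIO3 (1.96 to 3.07) and AL + PBS (2.93 to 4.71) overlapped.

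Per count of the lysosomal phagocyte gene *Cd68*, *Cd74* stood at 3.98 to 5.56 in AL + PBS, 1.78 to 3.35 in IF + PBS, 3.83 to 5.07 in AL + NaIO3 and 1.90 to 2.06 in IF + NaIO3. AL + NaIO3 and AL + PBS thus overlapped on this ratio, and both fasted groups lay below both fed ones. Per count of *Csf1r*, the receptor that macrophages and microglia depend on, the order changed, with 0.349 to 0.546 in AL + PBS, 0.206 to 0.481 in IF + PBS, 0.699 to 2.39 in AL + NaIO3 and 0.172 to 0.223 in IF + NaIO3. Per count of *Ctss* the 4 groups had 0.617 to 0.737, 0.395 to 0.687, 0.413 to 0.953 and 0.234 to 0.308. On *Ctss* the IF + NaIO3 libraries were below every other library, while on *Ptprc*, *Cd68* and *Csf1r* IF + PBS replicate 2 lay within or below their range. Per count of *Itgax*, *Cd74* stood at 7.6 to 9.81 in IF + NaIO3 and 7.82 to 18.3 in AL + NaIO3, so these groups overlapped. AL + PBS stood at 15.7 to 42.3 and IF + PBS at 14.2 to 17.8, without replicate 2 (0 *Itgax* counts). *H2-Aa* per *Irf8* was 1.42, 1.39 and 0.339 in IF + NaIO3 and 0.990 to 1.68 in AL + PBS, again with overlap.

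**Figure D5:**
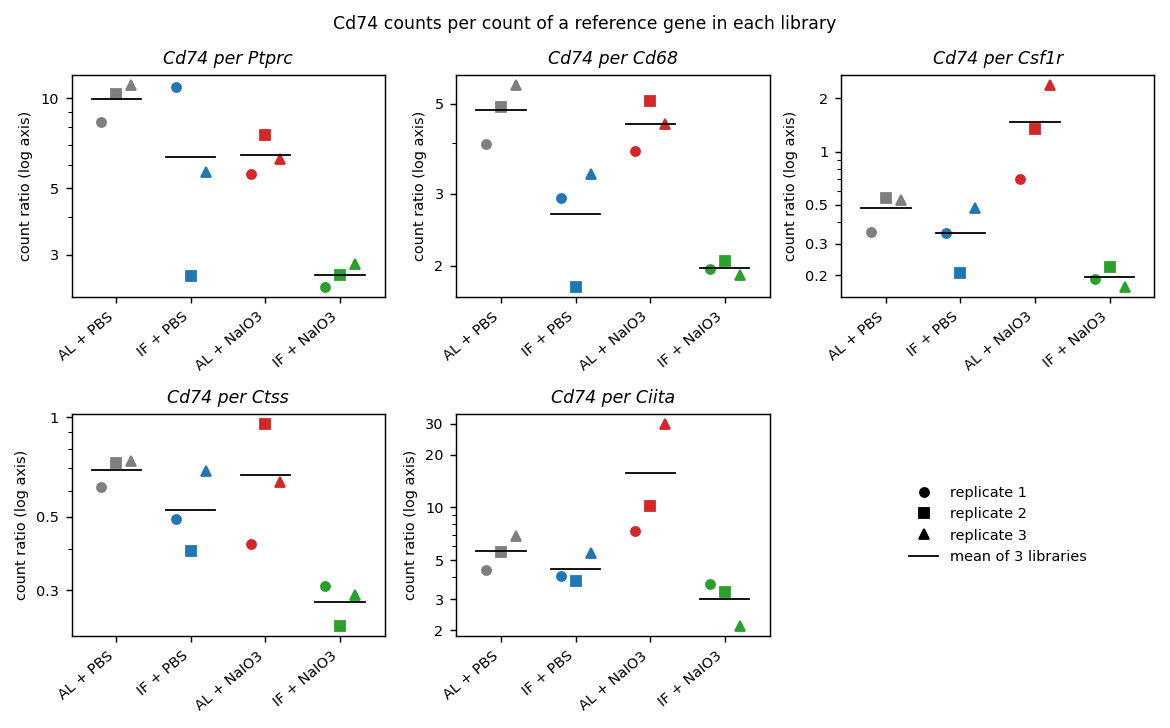
Counts of *Cd74* per count of *Ptprc*, *Cd68*, *Csf1r*, *Ctss* and *Ciita* in each library (log axes); points are mice and the line is the mean of 3 libraries. The spread within AL + NaIO3 is narrow for *Ptprc* and *Cd68* and wide for *Csf1r* and *Ciita*, and the IF + NaIO3 points lie low in every panel.

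*Cd74* changed by more than the transactivator gene *Ciita*, which did not hold for every member. In the AL + NaIO3 libraries *H2-DMa* stood at 1.41, 1.65 and 1.72 times its AL + PBS mean, against 1.85, 1.98 and 2.57 for *Ciita*. *Cd74* counts per *Ciita* count were 4.40 to 6.90 in AL + PBS, 3.81 to 5.47 in IF + PBS, 7.36, 10.1 and 29.9 in AL + NaIO3, and 2.11 to 3.65 in IF + NaIO3, so all 3 AL + NaIO3 libraries were above and all 3 IF + NaIO3 libraries below the PBS groups. *Ciita* per *Ptprc* count was 1.61 to 1.90 in AL + PBS, 2.67, 0.667 and 1.04 in IF + PBS, 0.210 to 0.759 in AL + NaIO3, lowest in replicate 3, and 0.642 to 1.32 in IF + NaIO3, so the IF + PBS libraries spanned the AL + PBS range and reached into that of AL + NaIO3. Counting error is large here, since the *Ciita* counts were 42 to 173.

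As a description of how the members varied together, Pearson's r of log2 CPM over the 12 libraries was 0.623 to 0.984 for the 21 pairs of members (median 0.867). Over the 9 libraries outside AL + NaIO3 it was 0.0387 to 0.911 (median 0.490). All pairs share library depth and scaling. Outside the 7, the 5 genes whose log2 CPM was most like the mean of the z-scored members over 12 libraries were *Serpina3n* (r = 0.963), *Chrnb4* (0.958), *Mpeg1* (0.958), *Cd44* (0.957) and *Clu* (0.956). Without AL + NaIO3 replicate 3 these r values were 0.893 to 0.911. *Mpeg1*, a perforin-like gene of macrophages, had 166, 307 and 173 counts in AL + PBS, 782, 531 and 5726 in AL + NaIO3, and 214, 168 and 147 in IF + NaIO3, and *Serpina3n*, a reactive glia and acute-phase gene, had 241, 510 and 351, then 2218, 2092 and 15970, and then 183, 318 and 192.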

How the data were processed

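Eye cup RNA of 12 mice was sequenced from poly-A selected libraries made with a stranded kit, and 1 library a mouse was grouped by the diet and injection in its label. The authors deposited whole-number read counts per gene, used here for every test, and FPKM values (fragments scaled to gene length and library total), used here only to compare levels between genes. HISAT2, StringTie, DESeq2 and edgeR are named in the submitters' processing notes, without versions or roles. The notes and the methods name GRCm39, but the gene coordinates of the deposited counts overlapped the GRCm38 position for 21203 of 21205 matched genes, and the GRCm39 position for 3560 of 21689 (16.4%), so coordinates are given as GRCm38. A deposited table of the authors' own comparisons (fold changes and p-values) was not used.

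Counts were analysed in R 4.3.3 with edgeR 4.0.16 (TMM scaling, filterByExpr, quasi-likelihood F test, limma 3.58.1) on the 6 libraries of each pair of groups, or on 12 for the interaction, with Benjamini-Hochberg adjustment over all genes tested; a gene was called at adjusted p under 0.05 and at least 1.5-fold. The fits were tested on simulated data. Shares called by DESeq2 are of the genes to which it gave an adjusted p, and a gene without one was not called. CPM values are TMM-scaled. With 3 mice against 3, an exact permutation test of 1 gene cannot go below p = 0.1, so none was run. Alternatives were DESeq2 1.42.0, other scalings and filters, a fit of all 12 libraries, a replicate block and leaving out each library. The limit of 3 counts covers counting error only. Replicate pairs differed by far more than sampling noise (chi-square per gene 12.8 to 229 over 12 pairs).

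The members and all gene lists were chosen with earlier results of these data known. Named genes are the 7 members, the genes of the pathway lists, markers from the lists of cell types, the 5 genes most like the members, and the other genes between the H2 members; some listed genes are not reported here. No protein table and no promoter window for *Cd74*, *H2-Ab1* or *Ciita* were used here.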

Additional observations from a re-analysis of the deposited data

How the results depend on the processing

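Of 487 log2 fold changes of single members under an alternative, 451 kept their direction and their side of the threshold, 33 passed it where the reported fit did not, and 3 changed sign, all in IF + PBS against AL + PBS, where the fold changes were near 0: *H2-Aa* at 0.076 without AL + PBS replicate 3 (range with a library left out -0.30 to 0.076), and *H2-DMa* at -0.00079 without AL + PBS replicate 3 and -0.0062 without IF + PBS replicate 1 (range -0.0062 to 0.18). In AL + NaIO3 against AL + PBS the genes called numbered 411 with DESeq2, 4 with library totals only, 19 with no filter, 177 with 12 libraries in 1 fit, 28 with the replicate block, and 0 to 90 with 1 library left out (0 without any of the AL + PBS libraries); 5 members were called by DESeq2, 3 by the fit of 12 libraries and 0 to 1 with a library left out, and the median log2 fold change of the members ran from 1.15 to 2.87. In IF + NaIO3 against AL + NaIO3 these counts were 478, 16 with no filter, 190, 28, and 0 to 75, with 5, 5 and 0 to 4 members and a median from -3.71 to -2.0. In IF + PBS against AL + PBS they were 192 with DESeq2, 5 with the replicate block, and 1 to 472; in IF + NaIO3 against IF + PBS 72, 2 with no filter, and 0 to 197. For the interaction they were 217, 13 with no filter, 8 with the replicate block, and 3 to 366, with 4 members by DESeq2 and 0 to 4 with a library left out, and a median from -3.38 to -1.66. The cause of these shifts was not tested.

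The replicate numbers did not pair the libraries: deviations from group means correlated at -0.101 to 0.138 between libraries of the same number (18 pairs), and 3 of 12 libraries were closest to their own number. With the replicate block, edgeR called 1 member, *Cd74* in IF + NaIO3 against AL + NaIO3 (adjusted p = 0.0383, 0.104 without the block and 2.0e-05 to 0.536 over all alternatives). Depth limits *H2-DMb1*, with 4 to 25 counts outside AL + NaIO3, and genes near 3 counts.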

Other observations

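The 3 IF + NaIO3 libraries can be set beside the AL + PBS libraries, a pair of groups that differ in both diet and injection and that was not tested. *Cd74* stood at 4.52, 3.8 and 3.93 CPM in IF + NaIO3 against 8.05, 11 and 11.3 in AL + PBS, which is 0.447, 0.376 and 0.388 times the AL + PBS mean. *H2-Eb1* was at 0.654, 0.480 and 0.235 times and *H2-DMa* at 0.659, 0.833 and 0.756 times that mean, both without overlap. In all, 5 of the 7 members were lower without overlap (*Cd74*, *H2-Aa*, *H2-Ab1*, *H2-Eb1* and *H2-DMa*), beside 9.64% of 15970 genes. *Ciita*, at 0.684, 0.640 and 1.03 times its AL + PBS mean, and *H2-DMb1*, at 0.723, 0.738 and 0.923 times, overlapped with AL + PBS. The macrophage and microglia marker sum of the same libraries was 1.17, 0.959 and 0.998 times its AL + PBS mean, and the dendritic cell marker sum 0.920, 1.04 and 1.45 times. The choroid and sclera stroma marker sum was 0.690, 0.769 and 0.700 times, below the 0.784 to 1.13 of the AL + PBS libraries, and its part in the class II values was not tested. The class II CPM per CPM of the macrophage and microglia list was 0.160, 0.176 and 0.154 in IF + NaIO3, 0.293, 0.336 and 0.344 in AL + PBS, 0.274, 0.18 and 0.310 in IF + PBS, and 0.278, 0.545 and 0.753 in AL + NaIO3. Per CPM of the dendritic cell list it was 0.901, 0.713 and 0.467 in IF + NaIO3 and 1.28, 1.48 and 1.54 in AL + PBS. On that list IF + PBS stood at 0.984, 0.775 and 1.28, overlapping IF + NaIO3, and AL + NaIO3 at 2.30, 2.42 and 4.38.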
